A study of Bos taurus with 9 samples.

Results

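Bovine endometrial co-cultures given lysophosphatidic acid (LPA) together with interferon tau were compared with co-cultures given phosphate-buffered saline. The comparison takes 6 of the 9 arrays of the study, those titled LPA+IFNt and Control (replicates 1, 2 and 3 of each), and all 24016 probe sets that are not Affymetrix controls. The uteri were those of 9 Holstein/Polish Black and White cows slaughtered between day 2 and day 5 of the cycle. Stromal cells outnumbered epithelial cells by 3 to 1 at seeding, and each array carried RNA pooled from 3 cows. Treated cells received 1e-06 M LPA and 1000 antiviral units of interferon tau (the label is read as a power of 10 and states no volume) for 6 h in serum-free medium with albumin, and control cells received the saline alone in the same medium. The remaining 3 arrays had LPA without interferon tau. Cells given interferon tau without LPA were not analysed here, so every difference below is that of both agents together, and the LPA arrays are quoted beside it. LPA against control shares the control arrays. Since 9 cows gave 9 pools of 3, pools share cows. Unless a replicate block is named, p-values measure the spread between these pools within each group, without pairing by replicate number.

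Interferon tau is a type I interferon that the trophectoderm of the ruminant conceptus secretes before attachment, and it is the signal by which pregnancy is recognised. It binds the IFNAR1 and IFNAR2 receptor chains, whose kinases phosphorylate STAT2. With IRF9 it forms part of a complex that enters the nucleus and switches on interferon-stimulated genes, and in the uterus the signal also restrains oxytocin receptor and prostaglandin F2α release, which would otherwise end the life of the corpus luteum. LPA is a lipid mediator made in the uterus that acts through G protein-coupled receptors.

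The labelled cell types were checked against their markers, and all levels are log2 values as deposited. Of 17 epithelial and 14 stromal markers measured, all lay above 2.80, the highest value of 3 probe sets for a bacterial trp transcript on any array, which is used below as the mark of a dim probe set. The mean level of the epithelial markers was 10.0 to 10.1 on the control arrays and 10.0 to 10.1 on the LPA+IFNt arrays. That of the stromal markers was 11.04 to 11.13 in control and 10.89 to 10.93 on the LPA+IFNt arrays. None of 10 endothelial markers and 6 of 21 leukocyte markers exceeded the trp level in control. PTPRC, the pan-leukocyte marker, differed by 0.03 (limma, adjusted p = 0.967). Correlations between arrays were 0.9983 to 0.9990 within control, 0.9980 to 0.9988 within LPA+IFNt and 0.9920 to 0.9937 between these groups.

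Of the 24016 probe sets, 595 (2.48%) were called higher and 687 (2.86%) lower with LPA and interferon tau at an adjusted p under 0.05 (limma, Benjamini-Hochberg), 5.34% in all. LPA against control gave 17 calls (0.0708%) and LPA+IFNt against LPA 1571 (6.54%). The rises were the larger: their median was 0.89 on the log2 scale (interquartile range 0.49 to 1.64), and the median of the falls was -0.47 (-0.64 to -0.34). A change of at least 1, which is a doubling, was reached by 268 of the probe sets called higher and 46 of those called lower, a change of at least 2 by 114 and 1, and a change of at least 4 by 51 and 0. In each called probe set the 3 arrays of either group lay wholly apart, as they also did in 10.2% of all probe sets in the higher and 12.8% in the lower direction. The called higher probe sets carried 335 named genes and the called lower 322, while 196 and 350 had no gene name.

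The split between directions depended on the scaling. Centring the arrays on 45 spike-in probe sets moved all differences up by 0.10 and left 488 higher and 158 lower. It raised the share of higher calls from 46.4% to 75.5%, while centring on the median gave 37.6%. The medians of the spike-in probe sets were 7.42 to 7.91 on the control and 7.36 to 7.72 on the LPA+IFNt arrays. This spread between replicates was wider than the shift. The spike-in fit gave every probe set the same variance, so its calls follow the size of change alone and say nothing of the spread between replicates. It kept 392 of the 595 higher and 99 of the 687 lower calls. With the replicate number as a block 2085 were called, 779 higher and 1306 lower, and these held 584 of the 595 and 640 of the 687. The call held without each of the 9 arrays in turn for 408 of the 595 rises and 276 of the 687 falls. The count of falls was 334 without control replicate 2, 391 without control replicate 1 and 427 without LPA+IFNt replicate 3. Counts of small falls thus moved more with the processing than counts of rises, of which 457 to 623 were called without 1 array.

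**Figure D1:**
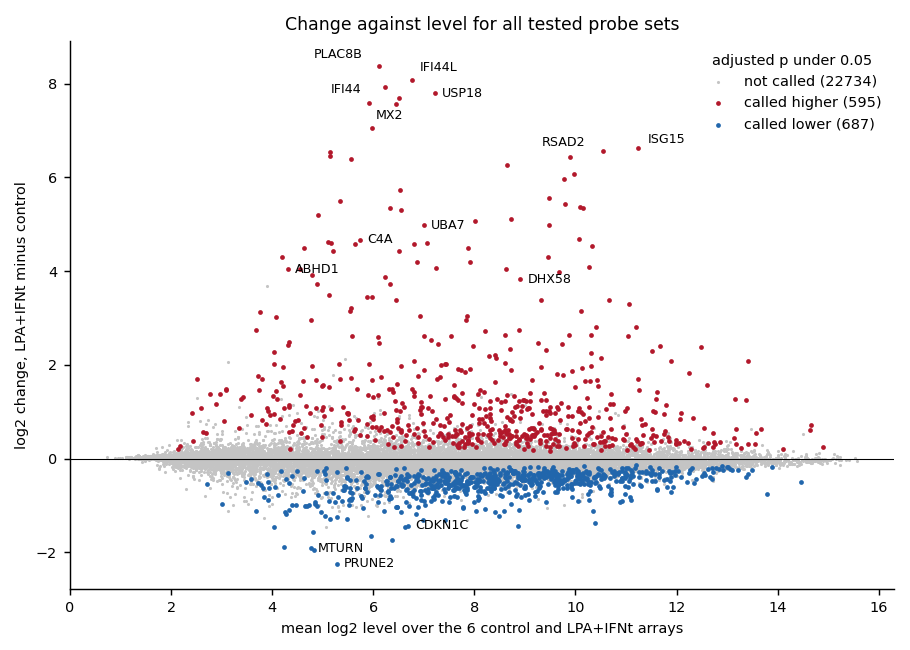
Each of the 24016 probe sets is a point, with its mean log2 level over the 6 arrays on the horizontal axis and the log2 difference between LPA+IFNt and control on the vertical axis. The 595 called higher (red) reach 8.38, and the 687 called lower (blue) reach -2.24 and mostly lie within 1 of zero.

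Genes are named below by size of change, by list, or because their values drew attention. Those given without a call, other than IFNAR1, IFNAR2, OXTR, ESR1, PTGS2, LPAR1, KRT18, VIM, PTGER4 and PTGR1, were chosen after their values were seen.

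The largest rises belonged to genes of the interferon response, and several started from below the trp level. PLAC8B, a paralogue of the placenta-specific gene PLAC8, had log2 levels of 1.90, 1.91 and 1.95 on control arrays 1, 2 and 3 (the order used throughout) and 10.21, 10.06 and 10.64 with LPA and interferon tau. The difference was 8.38 (SE 0.13, adjusted p = 2.02e-08), or 7.51 counted from the trp level. On the LPA arrays it stood at 1.92, 1.96 and 1.94, within the control range or next to it. Its paralogue PLAC8A differed from control by 0.17.

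The interferon-induced genes IFI44L and IFI44 also had differences near 8. IFI44L went from 2.71, 2.53 and 2.95 to 10.69, 10.69 and 11.02, a difference of 8.07 (SE 0.12), or 8.01 counted from the trp level. IFI44 rose from 2.26, 2.27 and 2.31 to 10.33, 10.16 and 10.10 (difference 7.92, SE 0.06, or 7.40 from the trp level), and all 4 of its probe sets were called. Where control lay below the trp level, as in 7 of the 25 named genes with the largest difference, the difference is no exact change, and no order is read from it. Both genes, which are neighbours in the genome, left a gap of over 7 between the highest control array and the lowest treated array.

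Antiviral effectors were the next group. MX2 encodes a dynamin-like GTPase that blocks viruses, and it went from 2.12, 2.11 and 2.12 to 9.77, 9.56 and 9.79, a difference of 7.59, or 6.91 counted from the trp level. Its neighbour MX1 had clear levels in control, 7.54, 7.42 and 7.45, and reached 12.82, 12.58 and 13.04 (difference 5.35, SE 0.11, adjusted p = 9.37e-08, 40.7-fold). RSAD2, whose product viperin makes a chain-terminating nucleotide, rose from 7.25, 7.17 and 7.40 to 13.93, 13.72 and 13.85 (94.2-fold, adjusted p = 1.73e-07). On the LPA arrays RSAD2 read 8.56, 8.10 and 8.69, a difference from control of 1.18 that missed the threshold (adjusted p = 0.0566). Of the 25 named genes with the largest rise, this was the smallest adjusted p for LPA against control. Their LPA values differed from control by -0.44 to 1.18, and all 25 were higher in LPA+IFNt than in LPA (largest adjusted p 0.000304).

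**Figure D2:**
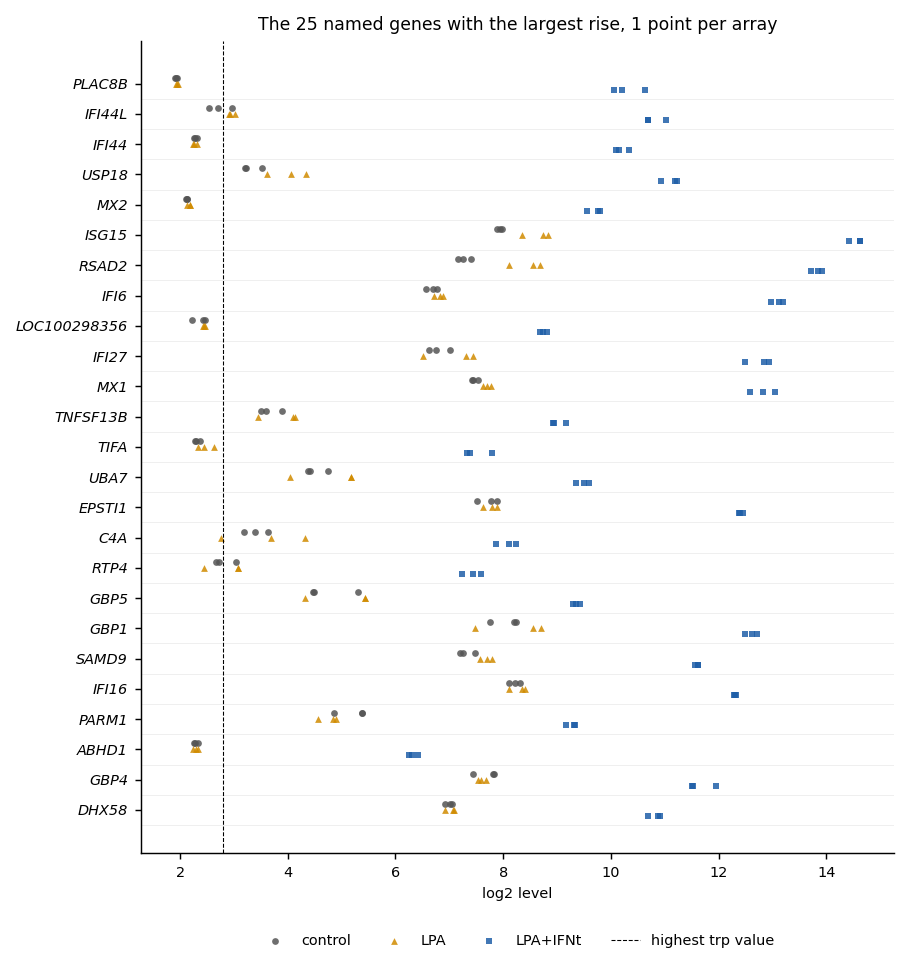
Log2 levels of the 25 named genes with the largest rise are shown with 1 point per array for control (grey circles), LPA (orange triangles) and LPA+IFNt (blue squares), and the dashed line marks the trp level of 2.80. In each gene the LPA+IFNt arrays lie apart from the other 6, from the control arrays by the rule of choice. The control means of 7 genes lie at or below the line.

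Across the list of 17 measured antiviral effectors, 13 were called higher and none lower, with a median difference of 2.41. For comparison, 3.43% of all 9155 named genes were called higher by their brightest probe set and 3.13% lower, and the median of all was -0.006. This and the later lists were chosen with earlier results of these data known, so these shares are given as context and are no test. IFIT5, which binds viral RNA, went from 10.54, 10.49 and 10.36 to 12.89, 12.80 and 12.93 (5.32-fold, adjusted p = 1.45e-06). SAMD9 (4.30), the receptor chaperone RTP4 (4.20 by its brightest probe set), the membrane protein IFITM1 (2.38), EIF2AK2 (2.29), the RNA-activated kinase that halts translation, and the retroviral capsid sensor TRIM5 (1.71) rose too. EIF2AK2 had 1 of 2 probe sets called.

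Members of this list that did not pass were OAS1X, IFIT2, OASL and CH25H. OAS1X encodes a 2'-5'-oligoadenylate synthetase and read 2.01, 2.05 and 2.09 in control and 6.80, 2.63 and 7.75 with both agents. All 3 treated arrays lay above control, but replicate 2 stayed below the trp level, so a difference of 3.68 had an SE of 1.14 and an adjusted p of 0.139. The cytidine deaminase gene APOBEC3Z1 had a like spread, with 3.01, 3.02 and 3.04 against 6.67, 5.08 and 8.46 (adjusted p = 0.0261). Its call was lost without any of 5 of the 9 arrays, with an adjusted p of up to 0.0900 without control replicate 2. Among the 268 probe sets called higher by at least 1, LPA+IFNt replicate 2 was the lowest treated array in 151, replicate 1 in 61 and replicate 3 in 56. The median range over the treated arrays was 0.26, against 0.24 over control, and 13 had a treated range above 1.

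Of 25 measured members of the list of IFI, GBP and other interferon-induced genes 21 were called higher and none lower. The median was 2.75, or 2.26 with the 4 members whose control lay below the trp level counted from that level. IFI6, a mitochondrial and endoplasmic reticulum protein that opposes apoptosis, went from 6.77, 6.71 and 6.56 to 13.20, 12.97 and 13.13 (85.8-fold). IFI27 reached 12.84, 12.50 and 12.93 from 7.01, 6.63 and 6.75, and its relative and neighbour ISG12(B) differed by 2.61 (adjusted p = 0.00527). Copies of such families may share probes, and their values are uncertain to that extent.

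The guanylate-binding proteins, GTPases that attack the vacuoles of intracellular microbes, rose in all 3 members of the list that were measured. GBP1 read 8.20, 7.76 and 8.23 in control and 12.63, 12.49 and 12.71 with both agents (difference 4.54, SE 0.31, adjusted p = 0.000125). GBP5 differed by 4.61 and GBP4 by 3.97. The DNA sensor IFI16 had little spread, with 8.32, 8.11 and 8.22 against 12.28, 12.30 and 12.32 (17.0-fold). EPSTI1 rose by 4.69, the apoptosis-linked XAF1 by 3.38, TMEM140 by 2.75 (2.26 counted from the trp level), TDRD7 by 2.22, and PML, the organiser of nuclear bodies, by 1.67. ERAP2 (0.57), IFI30 (0.22), PLAC8A and SECTM1 (0.02) were the members not called.

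Genes of ISG15 conjugation, which couples a ubiquitin-like tag to proteins, rose along the enzyme chain. ISG15 itself went from 7.89, 7.94 and 7.97 to 14.63, 14.42 and 14.62. UBA7, the activating enzyme, went from 4.75, 4.41 and 4.37 to 9.49, 9.35 and 9.60 (difference 4.97, SE 0.29, adjusted p = 4.87e-05). The conjugating enzyme UBE2L6 went from 6.59, 6.17 and 6.24 to 9.36, 9.30 and 9.43 (8.19-fold).

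The ligases of this pathway were not alike. HERC6 rose by 2.41 (adjusted p = 0.0117), from 2.97, 3.09 and 3.23 to 5.05, 6.56 and 4.92, with replicate 2 the highest here. TRIM25 rose by 0.52 (adjusted p = 0.0131), lost without LPA+IFNt replicate 1 (0.0533) and with spike-in centring (0.123). HERC5, the main ISG15 ligase of human cells, read 3.99, 4.10 and 4.23 in control and 3.93, 4.14 and 3.85 with both agents, overlapping groups with a difference of -0.13 (adjusted p = 0.651). USP18, which removes ISG15 and also blocks signalling at IFNAR2, rose by 7.80 in its most changed and 5.56 in its brightest probe set, and all 4 of its probe sets were called. In all 6 of 8 measured members rose and none fell (median 2.72).

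Of the 9 measured ADP-ribosyltransferase genes and their partner DTX3L, 4 rose and none fell (median 0.35). DTX3L, a ubiquitin ligase that works with PARP9, went from 9.45, 9.36 and 9.42 to 12.76, 12.60 and 12.74 (9.77-fold). PARP9 rose by 3.15 (8.89-fold) and PARP14 by 2.81, and PARP12, a zinc-finger member that binds RNA, by 1.41 with 2 of its 4 probe sets called. PARP9, DTX3L and PARP14 lie side by side in the cattle genome. The DNA repair enzyme PARP1 had a difference of -0.36, which did not pass.

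Neighbouring genes could be looked up in the RefSeq annotation of the ARS-UCD2.0 assembly. Among 4486 pairs of neighbouring protein-coding genes with both members measured, 112 had 1 or both members called higher by at least 1, and 11 had both. These 11 were PARP9 with DTX3L, DTX3L with PARP14, MX2 with MX1, NMI with RBM43, ISG12(B) with IFI27, PSMB8 with TAP1, TAP1 with PSMB9, GBP5 with GBP1, IFI44 with IFI44L, APOBEC3Z1 with APOBEC3Z2, and BTC with PARM1. In 1.5% of all genes the rise was called and at least 1 (137 genes), and 20 of the 137 were in these pairs. RBM43 and BTC, which encodes the growth factor betacellulin, were named only through their neighbours and after their values were seen, with differences of 3.21 and 1.07. Of 284 neighbouring pairs with 1 or both members called lower, 5 had both.

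Of 21 measured tripartite motif genes 5 were called higher and 1 lower, and the median (0.04) was close to that of all genes. TRIM21, an antibody receptor inside the cell, went from 4.48, 4.33 and 4.03 to 6.99, 6.82 and 6.87 (6.11-fold, adjusted p = 0.000352). TRIM34 rose by 2.19, TRIM38 by 1.67 and TRIM56, which promotes DNA sensing, by 1.15. With the replicate block 3 were called lower. TRIM37 was called lower (-0.47, adjusted p = 0.0488), a call lost without any of 7 arrays, with an adjusted p of up to 0.148 without control replicate 2, and with spike-in centring (0.882). The named members beyond these lay between -0.54 and 0.37.

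In the list of RNA and DNA sensing, which holds adaptors and TLR4 besides sensors, 4 of 15 measured genes rose and none fell (median 0.25). DHX58 encodes LGP2, a helicase of the RIG-I family, and went from 7.02, 7.05 and 6.93 to 10.92, 10.68 and 10.87 (14.2-fold, adjusted p = 7.59e-08). TLR3, the endosomal receptor for double-stranded RNA, went from 4.01, 4.11 and 4.20 to 5.44, 5.28 and 4.94 (difference 1.11, SE 0.18, adjusted p = 0.0107), with all 3 of its probe sets called. AZI2, an adaptor of the kinase TBK1, rose by 0.56 and TLR4, the receptor of bacterial lipopolysaccharide, by 0.57. Neither of these last 2 was called with spike-in centring (adjusted p = 0.0799 and 0.0690), and TLR4 (adjusted p = 0.0498) was also lost without any of 7 arrays, up to 0.168 without control replicate 1. The adaptor genes MAVS (0.31) and MYD88 (-0.09) did not pass. TIFA, an adaptor that links sensing of a bacterial sugar to NF-kappaB, belongs to the 25 largest rises, from 2.27, 2.30 and 2.36 to 7.79, 7.39 and 7.33, a difference of 5.19, or 4.71 counted from the trp level.

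The signalling chain of type I interferon moved in some of its parts. The receptor genes were not called: IFNAR1 read 4.30, 4.52 and 4.58 in control and 4.49, 4.37 and 4.57 with both agents, and IFNAR2 differed by 0.17 (adjusted p = 0.560). The kinase gene JAK1 differed by -0.15. STAT2 went from 6.00, 6.11 and 6.03 to 8.55, 8.28 and 8.67 (5.48-fold, adjusted p = 9.02e-06) and IRF9 from 6.59, 6.08 and 6.03 to 8.99, 8.59 and 8.94 (6.10-fold).

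Of the other interferon regulatory factors, IRF7, which amplifies interferon production, rose by 1.96 with 2 of its 3 probe sets called, IRF3 by 0.87 and IRF8 by 0.48. The IRF8 call was lost without control replicate 2 (adjusted p = 0.0581) or LPA+IFNt replicate 1 or 3, and with spike-in centring (0.207). In this list of 16 measured genes 5 rose and none fell (median 0.15). Of 16 measured brakes on interferon and NF-kappaB signalling 3 rose and none fell (median 0.07), while 1 was called lower with the replicate block, with median centring or without LPA replicate 1. Those that rose were USP18 and, more weakly, CYLD (0.43, adjusted p = 0.0227) and NFKBIE (0.32, adjusted p = 0.0370). CYLD, which trims ubiquitin chains, lost its call without any of the LPA+IFNt arrays (up to 0.0789) and NFKBIE without any of 7 arrays (up to 0.134 without control replicate 2). Neither was called with spike-in centring (0.320 and 0.812). SOCS3, a cytokine-induced inhibitor of JAK kinases, read 2.48 to 2.54 in control and 2.53 to 2.63 with both agents, all below the trp level.

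**Figure D3:**
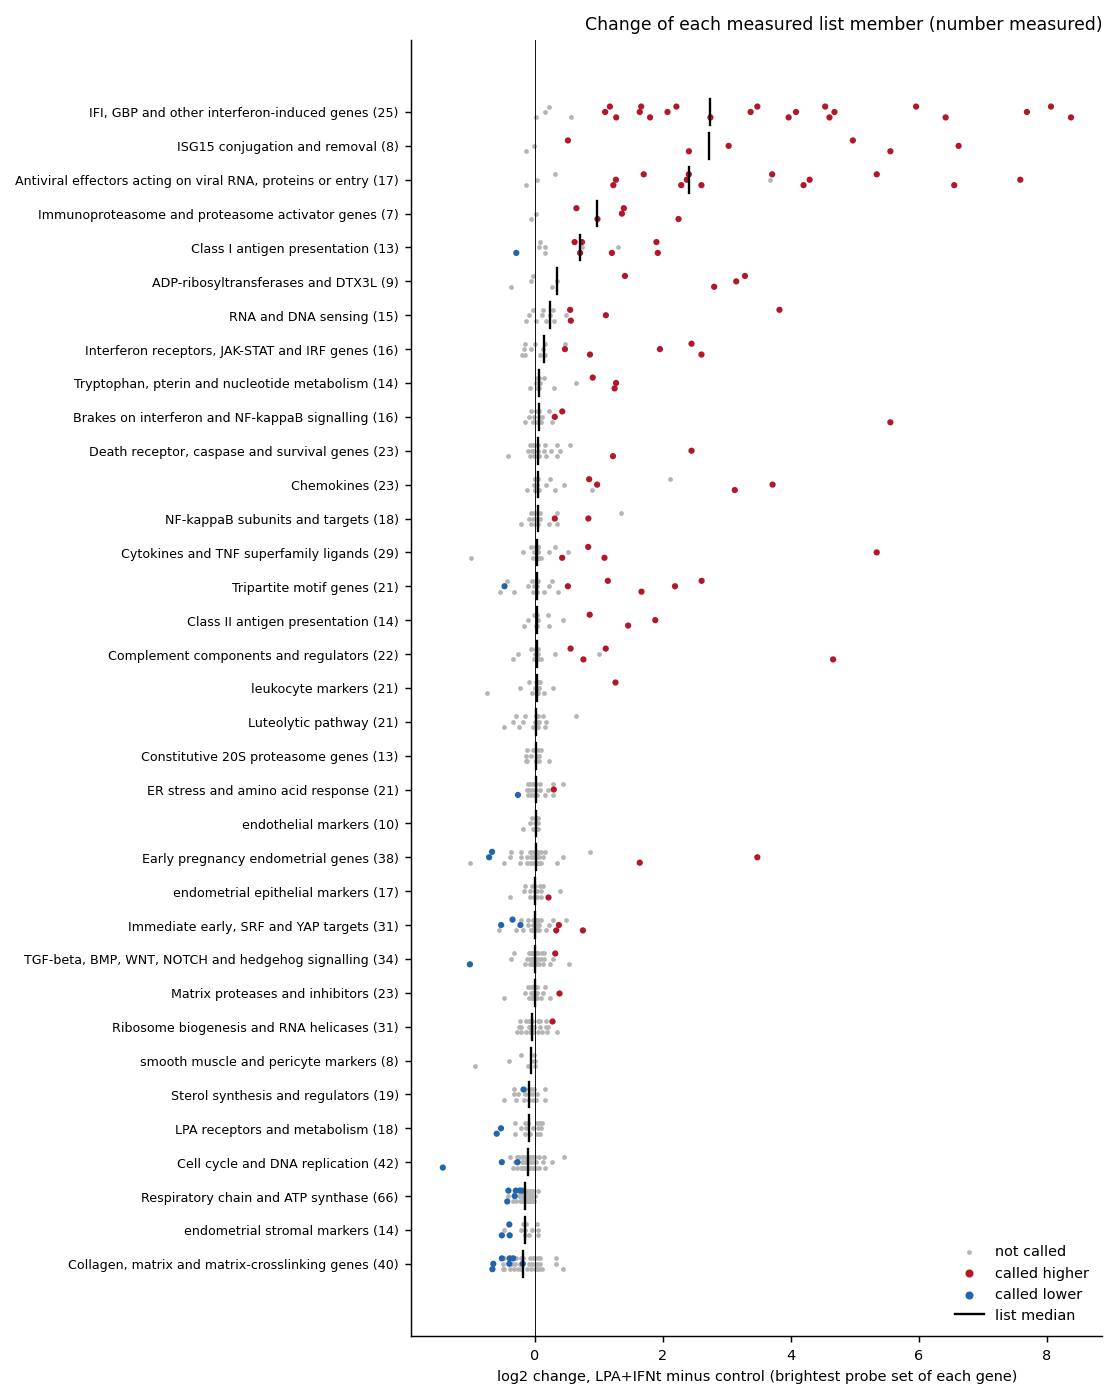
Each point is the log2 difference of a measured list member by its brightest probe set, with called members in red (higher) or blue (lower) and the list median as a black bar. Lists of interferon-induced genes, ISG15 conjugation and antiviral effectors have medians of 2.41 to 2.75 (2.26 for the first of these counted from the trp level). The medians of most other lists lie within 0.2 of zero. All medians include dim members.

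Antigen presentation to cytotoxic T cells starts with peptides cut by the proteasome, and its interferon-inducible subunits rose while the constitutive ones did not pass. PSMB9 went from 9.27, 8.96 and 9.32 to 11.49, 11.28 and 11.53 (difference 2.25, SE 0.19, adjusted p = 0.000466). PSMB8 rose by 1.40 and PSMB10 by 1.36, so that all 3 catalytic subunits of the immunoproteasome were called. The activator subunits PSME2 (0.98) and PSME1 (0.65) rose less, PSME1 from 12.27, 12.12 and 12.28 to 12.88, 12.86 and 12.89. The assembly factor POMP (0.02) and the activator PSME4 (-0.06) were not called.

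Of 13 measured constitutive subunits of the 20S core, none was called by limma, and 1 (PSMA5, 0.22, adjusted p = 0.193) had an unadjusted p under 0.05. Their differences ran from -0.14 to 0.22 with a median of 0.03. The count stayed at 0 with the replicate block, spike-in or median centring and became 1 without LPA+IFNt replicate 2. PSMB6, PSMB5 and PSMB7, whose places in the core PSMB9, PSMB8 and PSMB10 take, differed by -0.03, -0.13 and -0.05. The smallest called rise among the inducible subunits and activators, 0.65, was above every constitutive value. This sets called members alone against all constitutive ones. POMP and PSME4, which were not called, lay within the constitutive range.

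**Figure D4:**
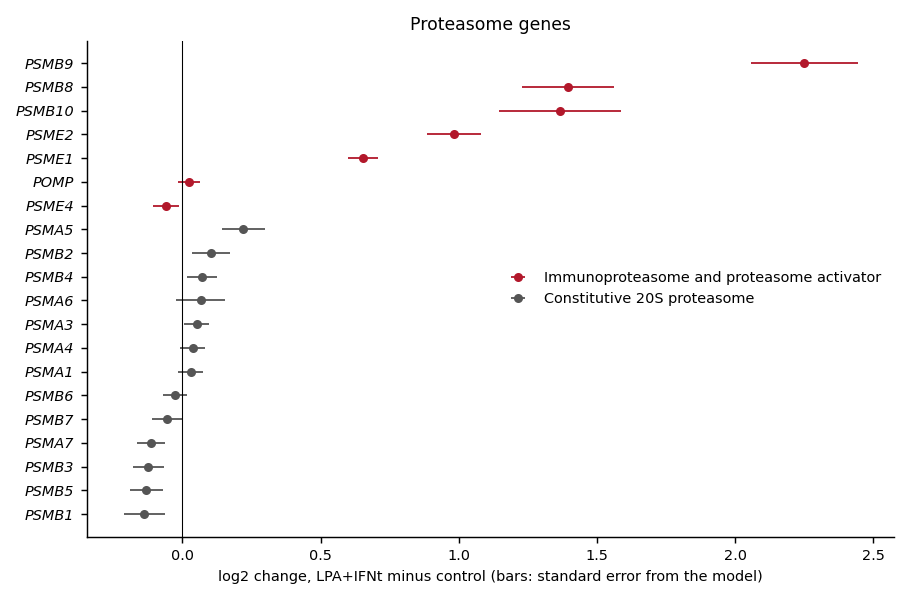
Log2 differences between LPA+IFNt and control with their standard errors are drawn for 7 genes of the immunoproteasome, its activators and assembly (red) and 13 constitutive 20S genes (grey). The 5 called red points lie at 0.65 to 2.25, and the grey points lie between -0.14 and 0.22.

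The later steps of class I presentation rose in part: 6 of 13 measured genes were called higher and 1 lower (median 0.71). The peptide transporter gene TAP1 went from 9.25, 9.03 and 9.25 to 11.17, 10.91 and 11.22 (3.80-fold), and TAP2 from 11.01, 11.02 and 11.001 to 11.78, 11.66 and 11.81 (1.67-fold). The class I heavy chain gene LOC512672 rose by 1.90, TAPBPL, which edits bound peptides, by 1.21, and the peptide-loading gene TAPBP by 0.63. B2M, the light chain, rose by 0.71 in its brightest probe set, a call lost without control replicate 2 (adjusted p = 0.0516) or LPA+IFNt replicate 1. The chaperone gene PDIA3 was lower (difference -0.28, adjusted p = 0.0178), but not without control replicate 2 (0.0767) or 3, nor with spike-in centring (0.882).

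The peptide-trimming enzyme ERAP1 and the class I gene BOLA were called or not depending on the block. ERAP1 read 6.88, 6.49 and 7.004 in control and 8.09, 7.84 and 8.35 with both agents, and replicate 2 was the lowest array of each group. Its difference of 1.30 had an adjusted p of 0.0583, or 0.00834 with the replicate block. BOLA differed by 0.74, with 0.169 and 0.0199.

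Of 14 measured class II genes 3 rose and none fell (median 0.04). The 9 that averaged above the trp level over the 9 arrays had a median of 0.23. BOLA-DMB, a chain of the editor of class II peptides, went from 6.12, 5.86 and 6.19 to 8.15, 7.41 and 8.27 (3.70-fold, adjusted p = 0.00444). The lysosomal protease gene CTSS rose by 1.46, from 10.42, 10.55 and 10.62 to 11.90, 12.02 and 12.06, and RFX5, a regulator of class II promoters, by 0.86 with 1 of 2 probe sets called. BOLA-DRA (0.44), BOLA-DQA1 (0.23) and BOLA-DRB3 (0.21), chains that display the peptide, did not pass.

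Chemokines were called higher in 4 of 23 measured genes and lower in none (median 0.05). Of the 23, 16 averaged above the trp level over the 9 arrays, with a median of 0.29. CXCL10, which draws activated T cells, read 4.50, 4.37 and 4.53 in control, 5.40, 3.69 and 6.14 with LPA, and 8.18, 7.53 and 8.84 with both agents. Its difference from control was 3.72 (SE 0.60, adjusted p = 0.0113), with a wider spread among the LPA arrays than in the other groups. CCL8, a monocyte chemokine, went from 2.18, 2.16 and 2.26 to 5.44, 5.69 and 4.87, or at least 2.54 counted from the trp level.

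The remaining called chemokines changed less. CCL2 rose by 0.85, from 11.68, 11.61 and 11.62 to 12.51, 12.28 and 12.68 (adjusted p = 0.00565). CXCL12, a ligand of CXCR4, rose by 0.98, a call lost without any of 5 arrays (adjusted p of up to 0.0772 without control replicate 2). CCL5, a T-cell and monocyte chemokine, read 4.58, 3.65 and 4.95 in control and 6.70, 5.71 and 7.10 with both agents, with replicate 2 again lowest in each group. Its difference of 2.11 had an adjusted p of 0.176 without the block and 0.0125 with it. The neutrophil attractant CXCL8 differed by 0.19 and CXCL5 by 0.01.

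Of 29 measured cytokine and TNF superfamily ligand genes 4 rose and none fell (median 0.05). Only 13 of them averaged above the trp level over the 9 arrays, with a median of 0.23. TNFSF13B, which encodes the B-cell survival factor BAFF, went from 3.59, 3.51 and 3.89 to 8.94, 8.92 and 9.17 (difference 5.35, SE 0.19, adjusted p = 3.08e-06). IL18, a cytokine matured by caspase-1, went from 8.35, 8.34 and 8.17 to 9.23, 9.06 and 9.08 (1.79-fold, adjusted p = 0.00399). IL6 rose by 0.43 (adjusted p = 0.00380), not called with spike-in centring (0.323). IL15, which sustains natural killer cells, rose by 1.09 (adjusted p = 0.0249) and lost its call without any of the LPA+IFNt arrays or control replicate 2 (up to 0.0842). The genes of TNF (0.06), IL10 (0.03), LIF (0.03) and interferon beta (IFNB1, 0.05) did not pass. CSF3, a granulocyte growth factor, differed by -0.99 (adjusted p = 0.313), and its size alone made it the 1 lower call with spike-in centring.

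In the complement list 4 of 22 measured genes were called higher and none lower (median 0.04). C4A, from which the opsonin C4b is cut, went from 3.63, 3.39 and 3.18 to 8.10, 7.86 and 8.23 (difference 4.67, SE 0.36, adjusted p = 0.000243). Near-identical C4 copies may share its probes. C1R, a protease of the first complement component, rose by 1.11, SERPING1, its inhibitor, by 0.76, and C2 by 0.56. These 3 calls were each lost without 5 or 6 of the arrays, with adjusted p of up to 0.0728 and 0.0805 without control replicate 2 and 0.114 without control replicate 1, and C2 was not called with spike-in centring (0.0724). That left 1 called member without any 1 of the control arrays and 2 without LPA+IFNt replicate 1 or 3. C1S, the partner protease of C1R, differed by 1.01 (adjusted p = 0.0747, or 0.0277 with the block). C3, the central component, had a difference of -0.34 that did not pass.

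Of 14 measured genes of tryptophan, pterin and nucleotide metabolism 3 rose and none fell (median 0.08). The 9 that averaged above the trp level over the 9 arrays had a median of 0.30. WARS1, the interferon-inducible tryptophanyl-tRNA synthetase, went from 12.60, 12.36 and 12.59 to 13.80, 13.70 and 13.87 (2.42-fold), although of its 4 probe sets 3 were called higher and 1 lower. The nucleotidase gene NT5C3A rose by 1.25 and NAMPT, which makes an NAD precursor, by 0.91. IDO1, the tryptophan-degrading enzyme, read 2.92, 2.93 and 3.13 against 3.53, 3.28 and 4.12, groups that did not overlap but differed with an adjusted p of 0.125.

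Among 23 measured death receptor, caspase and survival genes 2 rose and none fell (median 0.06), while 3 were called higher and 1 lower with the replicate block. CASP4, an inflammatory caspase, went from 8.38, 8.62 and 8.53 to 10.99, 10.95 and 10.95 (5.48-fold, adjusted p = 6.89e-06). CFLAR, an inhibitor of caspase-8, rose by 1.23 in its brightest probe set, from 8.37, 8.002 and 8.45 to 9.45, 9.40 and 9.65. FAS (0.34) and BAX (-0.07) did not pass.

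NF-kappaB subunits and targets had 2 of 18 measured members higher and none lower (median 0.05). These were TNFAIP6 (0.84, adjusted p = 0.00155), which remodels hyaluronan matrix, and NFKBIE, named above as an uncertain call. With the replicate block 4 were called. Among the added members was the adhesion molecule VCAM1, at 7.33, 7.29 and 7.53 in control and 8.74, 8.15 and 9.30 with both agents (adjusted p = 0.105, or 0.0196 with the block). NFKB1 (0.06) and RELA (-0.02) had differences near zero.

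OLR1, the gene of a receptor for oxidised lipoprotein, belongs to no list and was named after its values were seen. It read 7.55, 7.02 and 7.95 in control, 8.76, 7.90 and 9.52 with LPA, and 10.10, 10.10 and 10.57 with both agents. Its difference from control was 2.75 (SE 0.41, adjusted p = 0.008003) with both agents and 1.22 (adjusted p = 0.472) with LPA, and LPA+IFNt against LPA did not pass (1.53, adjusted p = 0.0778). The LPA arrays thus lay between the other groups, overlapping control.

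PARM1 and ABHD1 complete the picture of the largest rises. PARM1, a mucin-like membrane protein gene next to BTC, went from 5.39, 5.39 and 4.86 to 9.33, 9.31 and 9.16 (16.6-fold). ABHD1, a member of the hydrolase fold family, went from 2.26, 2.27 and 2.33 to 6.31, 6.26 and 6.41. This difference of 4.04 is 3.53 counted from the trp level, and the dimmer probe set of ABHD1 rose by 1.37 (limma, adjusted p = 0.0448). LOC100298356 went from 2.21, 2.45 and 2.43 to 8.74, 8.82 and 8.69 in its most changed probe set, a rise of 5.95 counted from the trp level. Its brighter probe set, with a control mean of 7.09, rose by 5.43. Each of the 25 genes kept its call without any 1 of the 9 arrays and with the replicate block. Of the 268 probe sets called higher by at least 1, 28 had a control mean at or below the trp level and 240 above it.

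Genes that fell did so by less. PRUNE2 had the largest fall of a named gene, from 6.56, 6.57 and 6.08 to 4.04, 4.02 and 4.43 (difference -2.24, SE 0.18, adjusted p = 0.000286), which is 4.73-fold. MTURN, linked to neural differentiation, went from 5.57, 5.41 and 6.17 to 3.39, 4.11 and 3.93 (-1.91, SE 0.30), with 2 of its 5 probe sets called. CDKN1C, the imprinted inhibitor of cyclin-dependent kinases p57, went from 7.59, 7.50 and 7.13 to 6.12, 5.69 and 6.11 (2.70-fold, adjusted p = 0.00356), with 1 of 3 probe sets called. In these 3 genes the LPA arrays did not differ from control by a called amount (adjusted p of 0.472 to 1).

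Adhesion, signalling and growth factor genes were among the rest. ITGAE, the integrin chain that binds E-cadherin, went from 9.27, 9.00 and 9.00 to 7.93, 7.84 and 7.83 (2.33-fold, adjusted p = 0.00106). IL1R1, the signalling receptor of interleukin-1, went from 7.44, 7.44 and 7.50 to 6.57, 6.63 and 6.44 (1.88-fold, adjusted p = 0.000101). BMP7, a bone morphogenetic protein, went from 7.09, 7.25 and 7.29 to 6.29, 6.03 and 6.29 (difference -1.01, adjusted p = 0.00390). Its LPA arrays read 6.76, 6.73 and 6.33, between the other groups, and neither LPA against control (adjusted p = 0.195) nor LPA+IFNt against LPA (0.141) was called. The Ras-family gene MRAS fell by 0.97 in its dimmer probe set (control mean 5.34). Its brighter probe set (control mean 5.91) differed by 0.02 (limma, adjusted p = 0.671), so this fall is uncertain for the gene.

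Among genes of membranes and lipid stores, RAB18, a small GTPase of lipid droplets and the endoplasmic reticulum, went from 10.52, 10.44 and 10.53 to 9.57, 9.55 and 9.64 (1.87-fold, adjusted p = 6.10e-05). FITM2, which helps lipid droplets to bud, went from 8.44, 8.34 and 8.09 to 7.49, 7.19 and 7.06 (adjusted p = 0.00353). Other falls called without each array were those of CIBAR1 (-1.13), the sulfotransferase gene CHST9 (-1.05), SH3BGR (2.00-fold), RENBP (-0.97), UQCC5 (-0.94), an assembly factor of respiratory complex III, and VAT1 (-0.91). RENBP went from a control mean of 3.50 to 2.53, below the trp level, so its difference is no exact change. EED, a Polycomb subunit, is listed for 23 probe sets, of which 2 were called higher and 4 lower, so its entry at -1.57 is uncertain.

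The calls of 4 of the 20 did not hold without each of the arrays in turn. IQSEC1 (-1.13) and RRAD (-1.04) were each lost without any of 5 arrays, with adjusted p of up to 0.0959 and 0.0875 without control replicate 1. MEDAG (-1.09) was lost without any of 4 and IGIP (-0.94) without any of 6, up to 0.0696 and 0.119 without control replicate 2, and IGIP also missed with the replicate block (0.0547). Of the 7 among the 20 that have several probe sets, none had all of them called. Some uncalled probe sets were dim, as in CDKN1C (control means 1.79 and 2.28). Others were not, as in MTURN (control mean 8.50, difference -0.11) and BMP7 (7.15, difference -0.57).

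**Figure D5:**
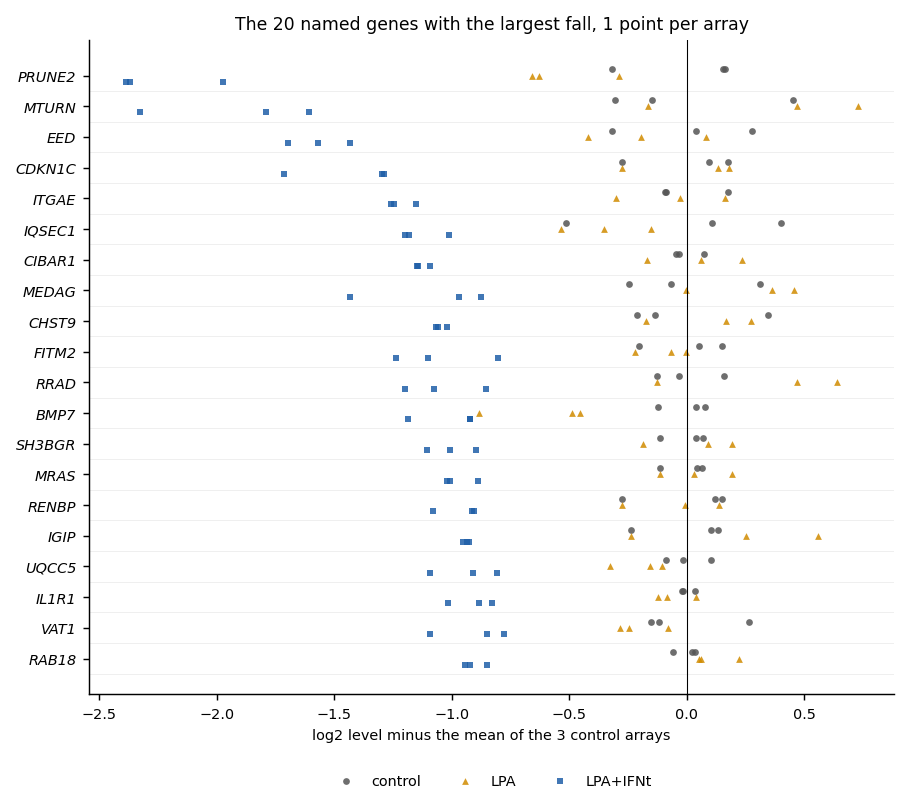
Each point is the log2 level of an array minus the control mean for the 20 named genes with the largest fall, for control (grey circles), LPA (orange triangles) and LPA+IFNt (blue squares). By the rule of choice the LPA+IFNt arrays lie left of the control arrays in every gene. Group differences run from -2.24 to -0.91, and in BMP7 the LPA arrays lie between the other groups.

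Genes with a part in luteolysis were not called in any of 21 measured members (median 0.03), and 3 had an unadjusted p under 0.05 by limma. Of the 21, 14 averaged above the trp level over the 9 arrays, with a median of -0.002. The oxytocin receptor gene OXTR read 9.49, 9.39 and 9.35 in control, 9.11, 9.18 and 8.71 with LPA and 9.03, 9.04 and 8.76 with both agents. The LPA+IFNt arrays lay below all control arrays and among the LPA arrays, and the difference from control was -0.47 (adjusted p = 0.0984, or 0.0230 with the replicate block). PTGER4, a prostaglandin E2 receptor gene, differed by 0.65 (0.0771, or 0.0300 with the block). In the same list 1 member in each direction was called without LPA replicate 2 or 3. The oestrogen receptor gene ESR1 was at 1.84 to 1.88 on the treated arrays and 1.84 to 1.85 in control, below the trp level. PTGS2, the inducible cyclooxygenase, read 13.00, 12.88 and 13.07 against 12.78, 12.74 and 12.90, overlapping groups with a difference of -0.18 (adjusted p = 0.484). PTGR1, a reductase that inactivates prostaglandins, differed by -0.34 (adjusted p = 0.119).

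Of 38 measured members of a list of endometrial genes known to respond in early ruminant pregnancy, 2 rose and 2 fell (median 0.02). This list leaves out interferon-induced genes given above, such as ISG15, MX1, MX2 and RSAD2. The 30 that averaged above the trp level over the 9 arrays had a median of -0.05. LGALS9, galectin-9, went from 3.56, 2.96 and 3.59 to 6.87, 6.78 and 6.92 (11.2-fold), and LGALS3BP, which binds galectins, rose by 1.64 and 1.89 in its probe sets. EPAS1, a hypoxia-inducible factor, went from 12.05, 12.37 and 12.29 to 11.54, 11.54 and 11.50 (difference -0.71, adjusted p = 0.00996). IGFBP1, a binding protein of insulin-like growth factors, fell by 0.66 (adjusted p = 0.0168). The IGFBP1 call was lost without control replicate 1 (0.0624), control replicate 3 or LPA+IFNt replicate 1, and neither fall was called with spike-in centring (0.133 and 0.225). With the block 5 were called lower, among them the uterine serpin SERPINA14 (adjusted p = 0.210, or 0.0412 with the block), whose arrays read 10.20, 9.88 and 10.72 in control and 9.24, 9.10 and 9.45 with both agents.

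LPA receptors and enzymes had 2 of 18 measured members lower and none higher (median -0.09, or 0.01 with spike-in centring). LPAR6 read 7.19, 7.34 and 7.39 in control, 6.48, 6.67 and 6.61 with LPA and 6.52, 6.91 and 6.91 with both agents, so both treated groups lay below control. Its difference with both agents was -0.52 (adjusted p = 0.0403), lost without any of 8 arrays (up to 0.134 without control replicate 2) and with spike-in centring (0.751). GPAM, which makes LPA from glycerol phosphate, was lower (difference -0.59, adjusted p = 0.0175), lost without any of 4 arrays (up to 0.0657 without LPA+IFNt replicate 1) and with spike-in centring (0.452). LPAR1 read 3.37, 3.21 and 3.41 against 3.41, 3.41 and 3.48 and was not called.

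Immediate early, SRF and YAP target genes had 3 of 31 measured members higher and 3 lower (median 0.01). ZFP36, which speeds the decay of cytokine mRNAs, went from 7.89, 7.87 and 7.70 to 8.64, 8.43 and 8.66 (1.69-fold, adjusted p = 0.00189). The other 5 called members, ATF3 (0.38), IER2 (0.34), EGR1 (-0.22), JUND (-0.34) and the tropomyosin gene TPM2 (-0.52), all lost their call with spike-in centring (adjusted p of at least 0.507), and only JUND of these 5 kept it without each array. ATF3, EGR1, IER2 and TPM2 were lost without 4, 4, 8 and 5 arrays, up to 0.0786, 0.0780, 0.113 and 0.101, each time without control replicate 2.

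IER2 was unlike the interferon genes in its order. It read 8.94, 8.88 and 8.80 in control, 9.92, 9.89 and 9.96 with LPA, and 9.21, 9.07 and 9.36 with both agents. The level with both agents thus lay between the others, below LPA alone (difference -0.71, adjusted p = 0.00107). GTPBP4, a GTPase of ribosome assembly, had the same order, with 9.88, 9.78 and 9.78, then 10.41, 10.62 and 10.53, then 10.11, 10.15 and 10.02, and stood below LPA alone (difference -0.43, adjusted p = 0.00679). Its own difference from control, 0.28 (adjusted p = 0.0453), was lost with the replicate block (0.0571), with spike-in centring (0.882) and without any of 7 arrays (up to 0.154 without control replicate 2).

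Collagen, matrix and matrix-crosslinking genes had 7 of 40 measured members lower and none higher, with a median of -0.18, or -0.08 with spike-in centring. With the replicate block 9 were called lower and 1 higher. COL12A1 went from 10.17, 10.37 and 10.21 to 9.68, 9.48 and 9.63 (difference -0.66, SE 0.08, adjusted p = 0.00318), with 1 of 3 probe sets called. THBS2, a matricellular thrombospondin, went from 10.98, 11.10 and 10.99 to 10.44, 10.24 and 10.47 (-0.64), and COL3A1 from 14.67, 14.75 and 14.73 to 14.14, 14.22 and 14.26 (-0.51) in its brighter probe set, the other differing by -0.76 (also called). The LPA means of these 3 genes lay 0.03 to 0.31 above the control means, and LPA+IFNt was below LPA (adjusted p of 0.000307 to 0.00113). The fibrillin gene FBN1 (-0.39), COL1A1 (-0.39) and the tenascin gene TNC (-0.33) were called too. The calls of COL1A1 and TNC were lost without any of 7 and 6 arrays (up to 0.123 without control replicate 1 and 0.127 without control replicate 2).

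None of the 7 matrix genes was called with spike-in centring, and 4 were called without control replicate 1, control replicate 2 or LPA+IFNt replicate 3. In these bulk co-cultures fewer cells of a type and less RNA per cell cannot be told apart. The stromal marker list moved with the matrix genes: 3 of its 14 members (COL3A1, COL1A1 and FBN1, which are in both lists) were lower, none was higher, and its median was -0.15, or -0.05 with spike-in centring. VIM, the stromal intermediate filament, read 14.11, 14.30 and 14.12 against 14.09, 14.06 and 13.94 (adjusted p = 0.285), and the epithelial keratin KRT18 11.94, 11.82 and 11.84 against 11.98, 11.82 and 11.84. The part of cell makeup in the matrix values was not tested.

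Of 66 measured genes of the respiratory chain and ATP synthase 6 were called lower and none higher. The differences ran from -0.43 to 0.06, and 64 were below zero, with a median of -0.14, or -0.04 with spike-in centring. The complex I genes NDUFB4, at 11.38, 11.20 and 11.29 against 10.96, 10.81 and 10.87 (-0.41, adjusted p = 0.00470), and NDUFB6 (-0.31, adjusted p = 0.00486) kept their call without each array. NDUFS7 (-0.43), NDUFA2 (-0.29), NDUFC2 (-0.23) and NDUFS1 (-0.20) did not, with adjusted p of up to 0.109, 0.0740, 0.0674 and 0.0642. All 6 called members belong to complex I. Its share of the 66 was not counted, so nothing particular to complex I is read from this. The count was 14 with the replicate block, 0 with spike-in centring, and 3 without control replicate 1, control replicate 3 or LPA+IFNt replicate 3. For comparison, the median of the 7030 named genes above the trp level was -0.05. Of those genes 4.08% were called lower, against 9.09% of this list, all of whose members lay above that level.

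Cell cycle and DNA replication genes had 3 of 42 measured members lower and none higher (median -0.10, or 0.00 with spike-in centring). Besides CDKN1C these were CDKN2C, an inhibitor of CDK4 and CDK6 (-0.51, adjusted p = 0.0270), and RRM1, a ribonucleotide reductase subunit (-0.27, adjusted p = 0.0340). The members that fell include 2 inhibitors of division, and CDKN1C alone of the 3 kept its call without each array. That left 1 call without any 1 of the LPA+IFNt arrays, and 5 were called without LPA replicate 3. CDKN2C was lost without any of 4 and RRM1 without any of 7 arrays (up to 0.0876 without LPA+IFNt replicate 3 and 0.122 without control replicate 1).

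The remaining lists held few calls. Of 34 measured genes of TGF-beta, BMP, WNT, NOTCH and hedgehog signalling, SMAD3 rose by 0.32 and BMP7 fell. Of 23 matrix proteases and inhibitors, PLAUR, the urokinase receptor, rose by 0.39 (11.73, 11.85 and 11.78 against 12.26, 12.19 and 12.07, adjusted p = 0.00570). Of 21 genes of endoplasmic reticulum stress, MANF rose by 0.30 and SEL1L fell by 0.26. Of 19 genes of sterol synthesis, HMGCS1 was lower (difference -0.18, adjusted p = 0.0402). GTPBP4 was the called member among 31 genes of ribosome biogenesis, and 4 others were called lower with the replicate block. With the replicate block the TGF-beta and sterol lists each had 2 lower calls, and the endoplasmic reticulum list had 2 higher calls. None of SMAD3, PLAUR, MANF, SEL1L and HMGCS1 was called with spike-in centring (adjusted p of at least 0.478). Of these 5 only PLAUR kept its call without each array, the highest adjusted p being 0.0617 for SMAD3 and 0.0619 for MANF without control replicate 2, and 0.113 for SEL1L and 0.131 for HMGCS1 without LPA+IFNt replicate 3.

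In the marker lists, CDH1, the epithelial cadherin, was higher by 0.21 (adjusted p = 0.0112), not called without control replicate 2 (0.0511) or with spike-in centring (0.882), and it read 0.20 above control with LPA as well. CD53, a leukocyte tetraspanin, was at 2.73, 2.62 and 2.89 in control and 4.02, 3.60 and 4.40 with both agents (adjusted p = 0.0252, difference 1.26, or 1.21 counted from the trp level), lost without any of 6 arrays (up to 0.0974 without control replicate 2). The mean level of the leukocyte list was 2.99 to 3.06 in control and 3.05 to 3.15 with both agents, close to the trp level, and 1 of its members was called lower with the replicate block, with 6 arrays alone or without LPA replicate 2 or 3. None of 8 smooth muscle and pericyte markers was called by limma, and 1 had an unadjusted p under 0.05, with mean levels of 5.08 to 5.39 in control and 4.96 to 5.07 with both agents. SMTN, a smooth muscle cytoskeletal gene, differed by -0.93 (adjusted p = 0.0564) and was called lower with the replicate block (0.0114), spike-in or median centring, an intensity trend, dim probe sets left out or probe sets averaged, and without control replicate 3. The part of these cells in any result was not tested.

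Unnamed probe sets carried part of the response. Among the probe sets with a change of at least 1, 85 of 268 called higher and 31 of 46 called lower had no gene name, and 16 unnamed probe sets rose by at least 4. An example chosen after its values were seen went from 1.86, 1.88 and 1.90, below the trp level, to 8.51, 8.25 and 8.48. Among 255 genes with several probe sets of which at least 1 was called, 39 had all of them called in the same direction and 4 (ALB, EED, MIA3 and WARS1) had calls in both directions.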

How the data were processed

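Gene expression was measured on Affymetrix bovine arrays, 3 per group, from 100 ng of RNA each with a 3' labelling method, per the labels' protocols. The deposited values are log2 intensities per probe set, which the authors made by RMA with Partek software according to the submitters' processing notes. Tool versions were not given in the sources used. The base of the logarithm was taken from the range of the values. RMA evens out overall brightness between arrays, so a change shared by most genes is removed. No counts exist for arrays, and the number of arrays limits the precision.

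From these values limma 3.58.1 (R 4.3.3; lmFit and eBayes, two-sided) was fitted to all 9 arrays with 3 group means and no covariate, over the 24016 probe sets that are not controls, with Benjamini-Hochberg adjustment and a threshold of 0.05. The script was tested on simulated data. Of these probe sets 13292 carry 1 gene symbol in the platform annotation, 86 several and 10638 none, and 13263 of the symbols' probe sets were found in RefSeq ARS-UCD2.0. Lists were read by each gene's brightest probe set. The rule named the 25 higher and 20 lower genes with the largest called change and no overlap between groups (by the most changed probe set), and up to 6 called members per list and direction, or 3 with the smallest p where none was called. Members and lists were chosen with earlier results of these data known. Members that belong to families of like genes are uncertain.

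Replicate numbers pair the samples: deviations from group means correlated at 0.190 to 0.491 in all 9 pairs with the same number and at -0.468 to 0.141 in the others. The labels do not say what the numbers mark. The main fit does not use this pairing, so spread shared by arrays of the same number stays in its error. Alternatives were the number as a block, 6 arrays alone, centring on spike-in probe sets or the median, dim probe sets left out, an intensity trend, robust or no variance moderation, probe sets averaged by gene, and each array left out.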

Additional observations from a re-analysis of the deposited data

How the results depend on the processing

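The groups of called probe sets lay wholly apart, so leaving out an array could not change a sign. The other fits, except centring and averaging of probe sets, keep the difference itself. Of the named genes 139 had a call, and none of these 139 changed sign with centring or averaging. Of these, 137 kept it without dim probe sets, 134 with an intensity trend, 138 with median centring, 136 with robust moderation, 125 with the 6 arrays alone, 128 with probe sets averaged and 109 without moderation. The replicate block kept 137, losing IGIP and GTPBP4. Spike-in centring kept 99, and its fit gave every probe set the same variance, so its p-values depend on the size of change alone and OAS1X was called there. Leaving out an array lost 5 to 34 of the 139, the most without control replicate 2.

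The count of LPA+IFNt against control (1282) was 788 without moderation, 2085 with the replicate block, 646 with spike-in centring and 791 to 1352 without 1 array. Lower calls (687) were 352, 1306, 158 and 334 to 730 in the same order, and higher calls without 1 array 457 to 623. Calls of at least 1 without 1 array were 238 to 270 higher and 29 to 54 lower, with 29 and 30 lower without control replicates 2 and 1. LPA against control (17) gave 37 without dim probe sets, 36 with a trend, 0 without moderation, 11 with the block, 138 with spike-in centring and 0 to 169 without 1 array. It was 0 without LPA replicate 1 or control replicate 2 and 169 without LPA replicate 2. LPA+IFNt against LPA (1571) gave 901 without moderation, 762 with spike-in centring and 954 to 2204 without 1 array. The planned comparison of promoter motifs was not run, because no sequence was used here. With 3 arrays a group, small changes limit what could be called, and dim probe sets have little room to fall.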
